A study of Mus musculus with 12 samples.

Results

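Death receptors are the members of the tumour necrosis factor (TNF) receptor family whose cytoplasmic tail carries a death domain, and the genes described here are 3 such receptors and 4 proteins that bind them. The receptors are Fas, Tnfrsf10b, the mouse receptor for TRAIL, and Tnfrsf1a, TNF receptor 1. The others are the death domain adaptors Fadd and Tradd, the kinase Ripk1 and the ubiquitin ligase adaptor Traf2. The 7 genes were chosen by name, and their rows were taken from the tables by the Ensembl gene ID that each row carries. Those IDs are ENSMUSG00000024778 for Fas, ENSMUSG00000022074 for Tnfrsf10b, ENSMUSG00000030341 for Tnfrsf1a, ENSMUSG00000031077 for Fadd, ENSMUSG00000031887 for Tradd, ENSMUSG00000021408 for Ripk1 and ENSMUSG00000026942 for Traf2. Of the 7 genes, 5 were listed in each of the 6 RNA libraries and 2, Fadd and Ripk1, in none, out of 13318 genes listed in any library.

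A ligand-bound death receptor clusters and recruits adaptors through death domain contacts. Fas and the TRAIL receptor recruit FADD, which brings caspase-8 to the receptor and can start apoptosis. TNF receptor 1 recruits TRADD, RIPK1 and TRAF2, a complex that mainly signals to NF-kappaB and JNK, and turns to caspase-8 or to necroptosis when its ubiquitin marks are lost. In the ovary the Fas system is known for its part in the apoptosis of granulosa cells during follicle atresia.

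RNA came from cumulus cells, the granulosa-lineage cells around the oocyte, of Kunming mice, an outbred strain. One group of 3 libraries came from cells given FSH, a gonadotropin, together with FBS, fetal bovine serum, over 18 hours, and the other 3 libraries are labelled untreated. The series compares complexes undergoing cumulus expansion with complexes stripped of their oocyte and undergoing apoptosis. Whether the untreated cells came from stripped complexes, and how long they were cultured, is not in the labels, so oocyte removal, culture time, FSH and FBS cannot be told apart.

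Each table lists the first exons, last exons and splice forms of assembled transcripts, each with an FPKM value (sequenced fragments scaled by transcript length and library size). A gene's level in a library is the larger of its summed first-exon and summed last-exon FPKM. The sequencing depth is unknown, because the tables hold no counts. Libraries 1 and 2 of a group were nearly repeats of each other. The median absolute log2 ratio over 9022 genes was 0.122 between the FSH and FBS pair and 0.145 between the untreated pair, against 0.456 to 0.552 for the other pairs within a group. Each such pair entered as the mean of its values, which leaves n = 2 per group. Nothing in the labels shows separate cultures or animals, and the p-values then measure a spread that may be technical. FSH and FBS library 3 had the highest sum of FPKM over all genes, 390966, against 264904 to 274530 in the other 5 libraries. Untreated library 2 carried other locus numbers than the other 5 libraries, with 0% shared against at least 99.1% among those 5. Some of its exon ends also differ, which touches Tnfrsf10b and Tnfrsf1a below. Of 12 granulosa and cumulus markers 11 were listed, with sums of 563 to 737 FPKM under FSH and FBS and 586 to 704 FPKM without. Foxl2, a defining granulosa marker, was not listed in any library. Oocyte markers (9 of 15 listed) summed to 2.53, 3.12 and 11.7 FPKM with FSH and FBS and to 14.2, 15.2 and 17.1 in untreated libraries. Of these sums, Gdf9 made up 8.77 FPKM in FSH and FBS library 3, where 24% of its signal lay outside the gene, and 4.16 to 6.06 FPKM in the untreated libraries. In FSH and FBS libraries 1 and 2 nearly all of the sum was Kit, at 2.27 and 2.97 FPKM, against 0.60 to 1.72 FPKM in the untreated libraries. Zp3, a defining oocyte marker, was listed only in the untreated libraries. Leukocyte markers (6 of 10 listed, leaving out Cd79a, whose whole signal lay outside the gene) summed to 2.96 to 7.19 and 8.97 to 12.6 FPKM, mostly Lyz2, while the defining Ptprc was listed in 1 library at 0.0050 FPKM. Theca and stroma markers (6 of 8 listed) summed to 18.5 to 24.5 and 65.8 to 81.7 FPKM. Most of this was Acta2, at 13.6 to 17.5 and 58.3 to 67.7 FPKM, which was called lower with FSH and FBS (limma adjusted p = 0.0296). Tagln overlapped between the groups, at 3.98 to 7.03 and 4.49 to 7.21 FPKM. Dcn was listed in the untreated libraries only, at 2.99 to 7.86 FPKM, and the other listed markers reached at most 0.68 FPKM. Endothelial markers (3 of 8 listed) summed to 2.58 to 3.38 FPKM with FSH and FBS and to at most 0.45 FPKM without. The treated sum was mostly Cdh5, listed in the 3 treated libraries only, at 2.06 to 2.63 FPKM. Vwf was listed in untreated libraries 1 and 2 only, at 0.022 and 0.016 FPKM. Pecam1 was at 1.32 FPKM in FSH and FBS library 1 and 0.44 FPKM in untreated library 2.

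Within the group of death receptors, the values of Fas were lower and those of Tnfrsf1a higher in all 3 libraries given FSH and FBS, and the other 3 listed members overlapped between the groups. None of the 5 tested members passed the test, limma on log2(FPKM + 1) with Benjamini-Hochberg adjustment over all genes at a threshold of 0.05, which called 2.37% of the 9022 genes tested. At an unadjusted p under 0.05, 2 of the 5 members passed, against 16.5% of all genes tested. Groups whose 3 libraries did not overlap were found for 2 of the 5 members and for 38.9% of all genes (29.4% with FSH and FBS above, 9.54% with untreated above). The 5 members had a median log2 fold change of 0.57, beside 0.24 for all genes tested. With all 6 libraries taken as separate replicates Fas and Tnfrsf1a passed, in a fit that called 14.7% of all genes and counts near repeats as replicates. With the replicate number as a block on the averaged samples, 1 of the 5 members, Fas, passed (limma adjusted p = 0.0162), in a fit that called 16% of all genes.

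**Figure D1:**
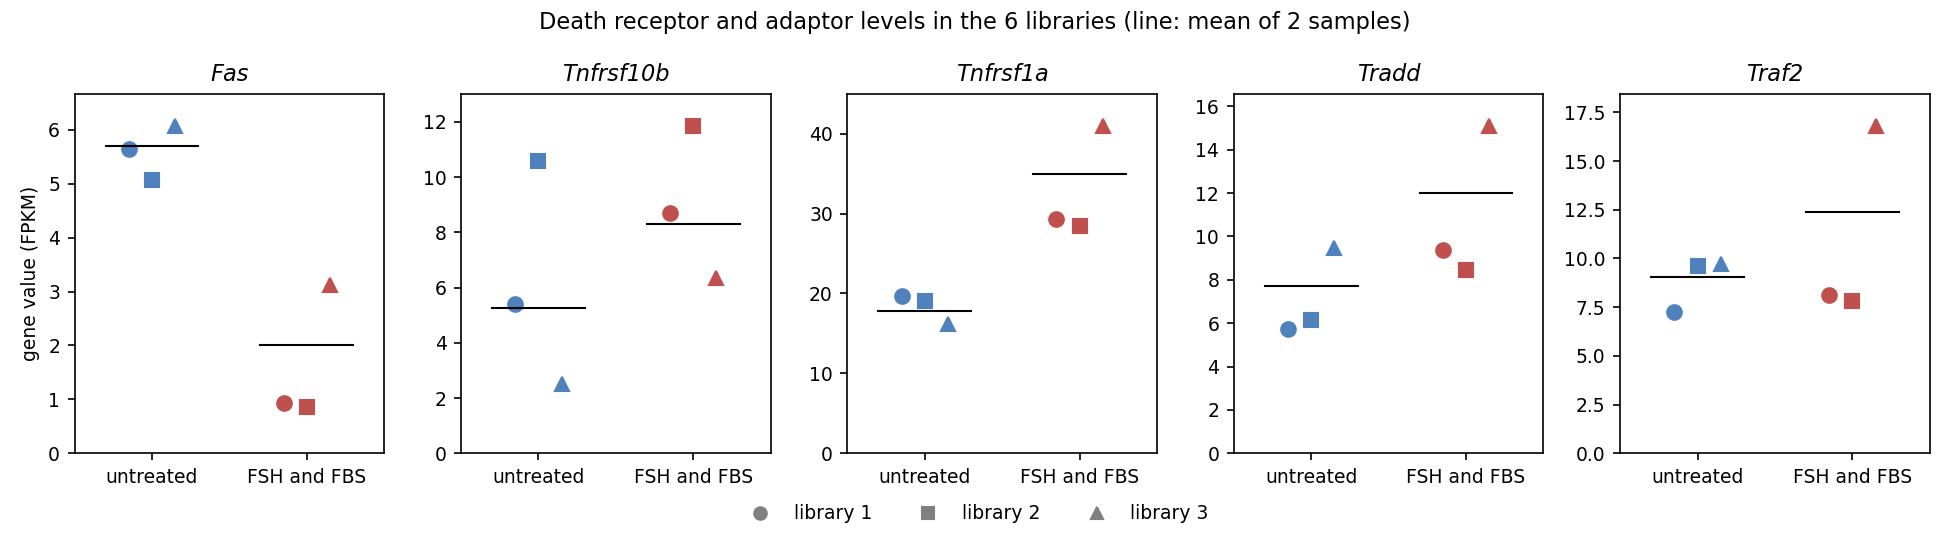
FPKM (linear axis from 0) of the 5 listed members in each library, with circles, squares and triangles for libraries 1, 2 and 3 and a line at the mean of the 2 samples. The 3 FSH and FBS points lie below all untreated points for Fas (0.87 to 3.13 against 5.06 to 6.07 FPKM) and above them for Tnfrsf1a (28.5 to 40.9 against 16.2 to 19.7 FPKM).

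Fas, the receptor of Fas ligand, measured 0.94, 0.87 and 3.13 FPKM under FSH and FBS, in libraries 1, 2 and 3. It was at 5.64, 5.06 and 6.07 FPKM in untreated libraries 1, 2 and 3. The groups did not overlap, and FSH and FBS library 3 stood closest to the untreated level. Against the other genes of its library, Fas lay at the 12.2, 11.6 and 26.8 percentile with FSH and FBS and at the 41.9, 39.4 and 47.9 percentile without. The sample means were 2.02 ± 1.58 and 5.71 ± 0.51 FPKM (SD, n = 2). The log2 fold change was -1.26 (95% interval -2.31 to -0.20, limma adjusted p = 0.235), or -1.50 relative to the median gene. Leaving out library 3 of a group leaves that group with 1 sample, which is then assumed to vary as the samples of the other group do. On that assumption the log2 fold change was -1.82 without FSH and FBS library 3 (limma adjusted p = 0.0393; 4.26% of all genes called). It was -1.18 without untreated library 3 (limma adjusted p = 0.616; 1.12% of all genes called). Over all alternative settings the adjusted p ranged from 0.016 to 0.616. Fewer cells of a type and less RNA per cell cannot be told apart in such bulk samples. The leukocyte, oocyte and theca and stroma marker sums given above were also lower in all FSH and FBS libraries, and the endothelial sum was higher. The theca and stroma sum was mostly Acta2 and the treated endothelial sum mostly Cdh5, so these sums need not follow a cell type. The part of the marker sums in the Fas difference was not tested.

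The start of Fas lies on chromosome 19 at position 34290659 on the plus strand, in every library. The genome build of the tables is not given in the sources used here, but this base equals a RefSeq transcript start on GRCm38.p6. Over all genes with a RefSeq transcript start, 33.9% to 37.8% per library had a first exon that began at such a start of the gene. The stretch before that start is shown because it is the only Fas start listed in the 6 libraries. Its 250 bases (RefSeq, GRCm38.p6, chr19:34290409-34290658, plus strand, 5′ to 3′) have matches to searched motifs in capitals:
Fas: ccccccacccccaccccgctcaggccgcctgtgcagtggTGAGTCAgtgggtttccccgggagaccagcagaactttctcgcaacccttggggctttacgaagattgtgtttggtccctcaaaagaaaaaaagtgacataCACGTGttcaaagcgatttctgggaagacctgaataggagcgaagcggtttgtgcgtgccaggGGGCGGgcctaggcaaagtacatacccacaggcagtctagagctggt
They hold 1 AP-1 site (TGAGTCA, positions -211 to -205 from the start), 1 E-box (CACGTG) and 1 GC box (GGGCGG). On either strand, 4.46%, 6.02% and 32.7% of 32851 such RefSeq windows hold these. The CRE core (TGACG), the full CRE (TGACGTCA) and the NF-kappaB site were also searched, and none of these letters is in this window. The CRE core is contained in the full CRE.

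Fas transcripts ended at the distal last exon (positions 34326993 to 34327770) or early, in an exon at 34309036 to 34309350, about 18377 bases after the start. The early end had 0.18, 0.14 and 0.018 FPKM with FSH and FBS and 0.18, 0.42 and 0.55 FPKM in untreated cells. Untreated library 2 listed a further early end at 34310012 to 34310566, with 0.54 FPKM. Early ends made up 18.9%, 16.2% and 0.58% of the last-exon sum with FSH and FBS and 3.19%, 18.9% and 9.1% without, so the shares overlapped. The distal exon alone was at 0.76, 0.73 and 3.11 against 5.46, 4.11 and 5.52 FPKM, the same order as the gene value. In untreated library 3 the first exon, at 3.54 FPKM, was below the last-exon sum. By first exons only, the log2 fold change of Fas was -0.94 (limma adjusted p = 0.505).

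Tnfrsf10b had a first exon at positions 69767472 to 69767791 of chromosome 14 in all 6 libraries. Its level was 4.32, 5.53 and 1.48 FPKM with FSH and FBS and 5.4, 4.39 and 2.51 FPKM in untreated cells. These values overlapped. A second, inner first exon, at positions 69777142 to 69777815 and 9670 bases further on, was listed in all 3 FSH and FBS libraries and in no untreated one. It was at 4.4, 6.32 and 4.85 FPKM and made up 50.4%, 53.3% and 76.6% of the first-exon sum. Transcripts that begin there would lack the outer first exon. Absence from a table is not a value of 0, and without read depth a lowest detectable level cannot be given. The share of all first exons with this listing pattern is not given here, so the pattern cannot be set against a background.

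The gene value of Tnfrsf10b depends on which exons are added. It was 8.71, 11.8 and 6.33 FPKM with FSH and FBS and 5.4, 10.6 and 2.51 FPKM in untreated cells, with untreated library 2 inside the range of the treated libraries. That library alone listed the distal last exon (6.19 FPKM) and 4 shorter ends, whose sum set its value. The log2 fold change was 0.70 (95% interval -0.49 to 1.88, limma adjusted p = 0.55). By the shared first exon only, an alternative chosen after seeing the data, it was -0.25 (limma adjusted p = 0.852), so the direction of this receptor turned with the exons counted. Its size also rested on single libraries, at 0.017 when untreated library 3 was left out and 1.01 when FSH and FBS library 3 was. Over all alternatives the adjusted p ranged from 0.102 to 0.997.

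**Figure D2:**
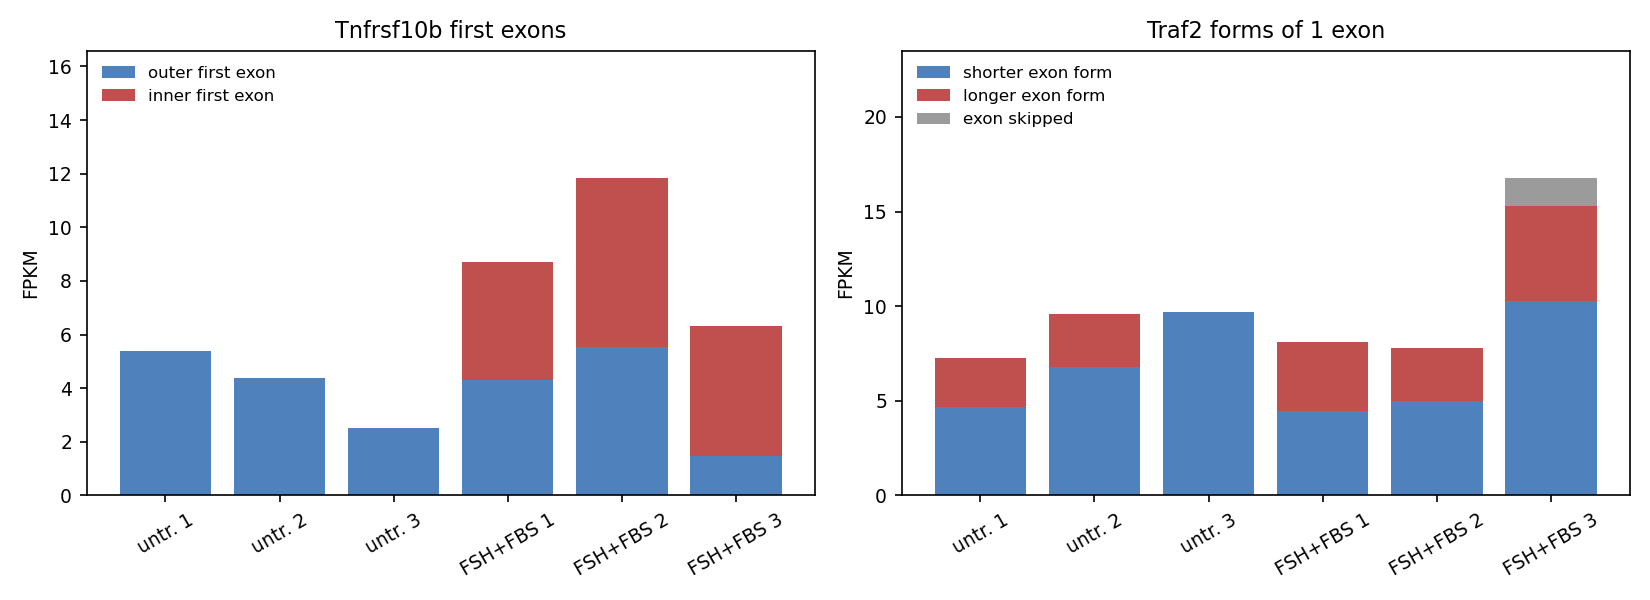
Stacked FPKM per library of the 2 first exons of Tnfrsf10b (left) and of the forms of 1 exon of Traf2 (right); a form that a library does not list has no bar. The inner Tnfrsf10b exon appears in the 3 FSH and FBS libraries only, at 4.4 to 6.32 FPKM, and the longer Traf2 form in 5 of 6 libraries.

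Tnfrsf1a, TNF receptor 1, had the highest level of the listed members in each library. It was at 29.3, 28.5 and 40.9 FPKM with FSH and FBS and at 19.7, 19 and 16.2 FPKM in untreated cells, and the groups did not overlap. It lay at the 83.6 to 85.1 percentile of listed genes in treated and the 75.8 to 77.7 percentile in untreated libraries. The sample means were 34.9 ± 8.50 and 17.8 ± 2.23 FPKM (SD, n = 2). The log2 fold change was 0.92 (95% interval 0.10 to 1.75, limma adjusted p = 0.262), or 0.68 relative to the median gene. Under the 3 rescalings of the libraries it was 0.55 to 0.66.

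The first exon of Tnfrsf1a began at position 125349284 of chromosome 6 in 5 libraries, 439 bases before the RefSeq start on GRCm38.p6. In untreated library 2 it began at 125349723, the RefSeq start itself. FPKM is scaled by length, and the effect of this difference on the level was not tested. Untreated libraries 1 and 2, near repeats with the 2 models, gave 19.6 and 18.9 FPKM for this exon. Without untreated library 2 the log2 fold change was 0.91. A form listed as skipping an exon at 125358276 to 125358391 carried 16.2 to 40.9 FPKM, as much as the gene, and no form retaining that exon was listed in either group.

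Tradd, the adaptor of TNF receptor 1, was at 9.37, 8.45 and 15.1 FPKM with FSH and FBS and at 5.73, 6.16 and 9.48 FPKM in untreated cells. Untreated library 3 lay above treated libraries 1 and 2, so the groups overlapped. That value was its last-exon sum, while its first-exon sum, 7.49 FPKM, lay below all treated libraries. By first exons only, the log2 fold change of Tradd was 0.72 (limma adjusted p = 0.501). By the gene value it was 0.57 (95% interval -0.39 to 1.52, limma adjusted p = 0.544). Rescaling the libraries gave 0.29 to 0.32, and over all alternatives the adjusted p ranged from 0.0504 to 0.911. Tradd lies on the minus strand of chromosome 8, and its main last exon, at 105258286 to 105259295, runs 289 bases past the RefSeq end. An early end inside the gene made up 1.52% to 4.85% of the last-exon sum with FSH and FBS and 2.26% to 4.36% without. Such minor forms were therefore a small part of Tradd in both groups.

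Traf2, which carries the ubiquitin ligases cIAP1 and cIAP2 to TNF receptors, was at 8.12, 7.8 and 16.8 FPKM with FSH and FBS and at 7.27, 9.61 and 9.69 FPKM in untreated cells. FSH and FBS library 3 stood above the other 5 libraries, which overlapped. The log2 fold change was 0.33 (95% interval -0.65 to 1.31, limma adjusted p = 0.742), or 0.087 relative to the median gene. Without FSH and FBS library 3, the library with the highest FPKM sum, it turned to -0.17.

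All Traf2 signal began at position 25546940 on the minus strand of chromosome 2, which is also a RefSeq start. The 250 bases before it are shown for the same reason as for Fas (RefSeq, GRCm38.p6, chr2:25546941-25547190, minus strand, 5′ to 3′, motif matches in capitals):
Traf2: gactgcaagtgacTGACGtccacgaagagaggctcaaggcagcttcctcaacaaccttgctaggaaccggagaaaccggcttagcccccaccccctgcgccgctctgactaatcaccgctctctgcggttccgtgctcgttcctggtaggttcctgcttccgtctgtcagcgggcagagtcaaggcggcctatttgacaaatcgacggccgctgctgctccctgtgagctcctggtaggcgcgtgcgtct
This window holds 1 CRE core (TGACG, positions -237 to -233 from the start), as do 17.8% of the windows on either strand, and none of the other motifs searched. The full CRE is found in 1.55% and the NF-kappaB site in 3.9% of the windows. A match is a run of letters and not a site in use.

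One Traf2 exon came in a longer form, 240 bases at 25538845 to 25539084, and a shorter form, 219 bases. The 21 extra bases are a multiple of 3 and would encode 7 amino acids in frame. A TRAF2 variant with a short insertion in its RING domain, the part that contacts ubiquitin-conjugating enzymes, is known as TRAF2A. Whether the longer form here is that variant cannot be read from these tables. The longer form was at 3.63, 2.82 and 5.04 FPKM with FSH and FBS, 2.58 and 2.84 FPKM in the untreated libraries 1 and 2, and unlisted in the third. Its share of both forms was 44.7%, 36.2% and 32.9% with FSH and FBS and 35.5% and 29.6% in the untreated libraries that listed it. The shares of the 2 groups overlapped. A form that skipped the exon was listed in FSH and FBS library 3 only, at 1.47 FPKM, or 8.75% of Traf2.

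Fadd, the adaptor between Fas and caspase-8, was not listed in any library, and no row under another gene ID lay over its RefSeq span. Whether rows without a gene ID lay over that span was not tested. Ripk1, the kinase of the TNF receptor 1 complex, also had no row under its own gene ID. Over its span the tables hold rows under the ID of a predicted gene, Gm17084, on the plus strand of chromosome 13. Their first exon starts at 34002363, a RefSeq start of Ripk1, in all 6 libraries. These rows were at 14.1, 14.4 and 8.59 FPKM with FSH and FBS and 9.47, 10.5 and 7.69 FPKM in untreated cells, and the groups overlapped. The log2 fold change under that ID was 0.31 (limma adjusted p = 0.74). They may hold Ripk1 transcripts, but they were not counted as Ripk1.

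In order of level, Tnfrsf1a stood first in each of the 6 libraries. In the untreated libraries the sample means of Traf2 (9.07 ± 0.89), Tradd (7.71 ± 2.50), Fas (5.71 ± 0.51) and Tnfrsf10b (5.25 ± 3.88 FPKM; SD, n = 2) followed, and only Fas and Traf2 among these 4 had untreated library ranges apart from each other. With FSH and FBS the order of the sample means was Traf2 (12.4 ± 6.24), Tradd (11.99 ± 4.36), Tnfrsf10b (8.31 ± 2.79) and Fas (2.02 ± 1.58 FPKM; SD, n = 2). The place of Traf2 rested on library 3, at 16.8 FPKM. In treated libraries 1 and 2 Traf2 (8.12 and 7.8 FPKM) lay below Tradd (9.37 and 8.45) and Tnfrsf10b (8.71 and 11.8). Fas was the lowest listed member in all 3 treated libraries.

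**Figure D3:**
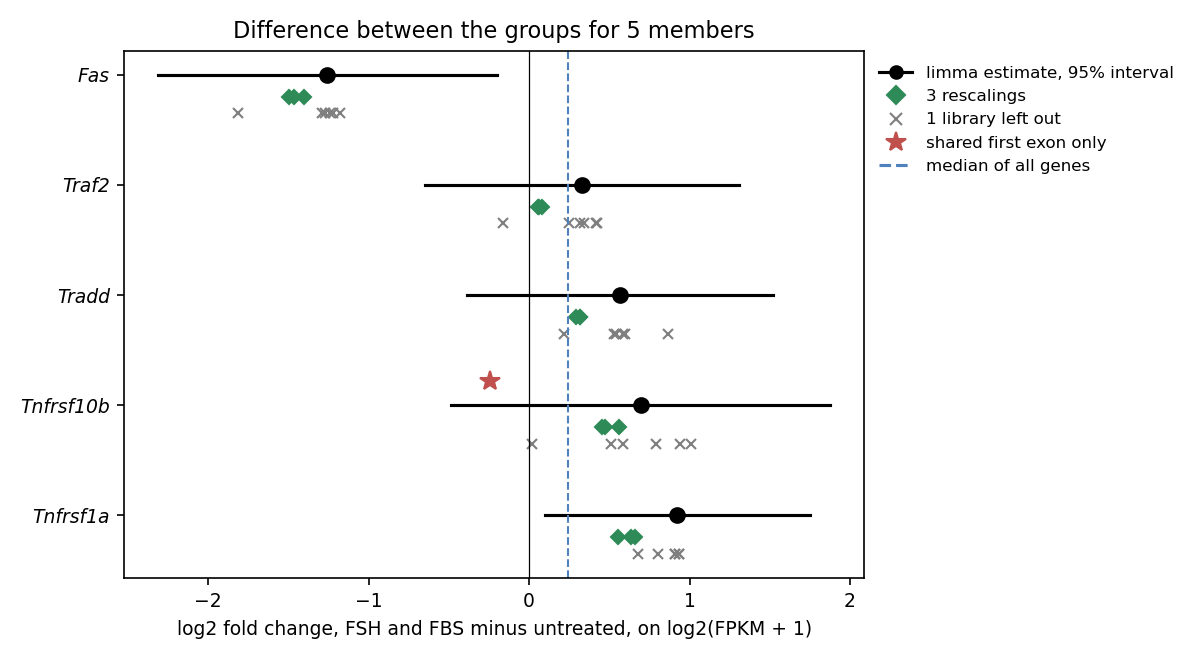
Log2 fold change (horizontal axis) of the 5 listed members, with the limma estimate and its 95% interval in black, the 3 rescalings as diamonds, values without 1 library as crosses and the shared first exon of Tnfrsf10b as a star. The intervals of Fas (-2.31 to -0.20) and Tnfrsf1a (0.10 to 1.75) lie apart from 0 before adjustment, and those of the other 3 include it.

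A ratio of 2 genes within a library does not depend on how libraries are scaled. The ratio of Tnfrsf1a to Fas, chosen after its values were seen, was 31.2, 32.9 and 13.1 with FSH and FBS and 3.49, 3.75 and 2.67 in untreated cells, and the groups did not overlap. Tnfrsf1a was higher and Fas lower in all 3 treated libraries, so this ratio could not overlap. Its separation and its permutation p were thus fixed in advance and restate the results of the 2 genes. On the log2 scale the samples differed by 2.72, a 6.60-fold difference (exact permutation test, two-sided, n = 2 per group, p = 0.333, the smallest it can give). The ratio of Tnfrsf1a to its adaptor Tradd was 3.13, 3.37 and 2.71 against 3.43, 3.09 and 1.71, and overlapped. The ratio of Tnfrsf1a to Traf2 was 3.61, 3.66 and 2.44 against 2.7, 1.98 and 1.67 and overlapped as well. In all, 6 ratios among the members were computed, and among these only the Tnfrsf1a to Fas ratio had groups that did not overlap. Fas to Tradd and Fas to Traf2 were not among the 6. By the library values given above, both of these ratios are also lower in every treated than in every untreated library. The separation was therefore not particular to the pair with Tnfrsf1a.

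**Figure D4:**
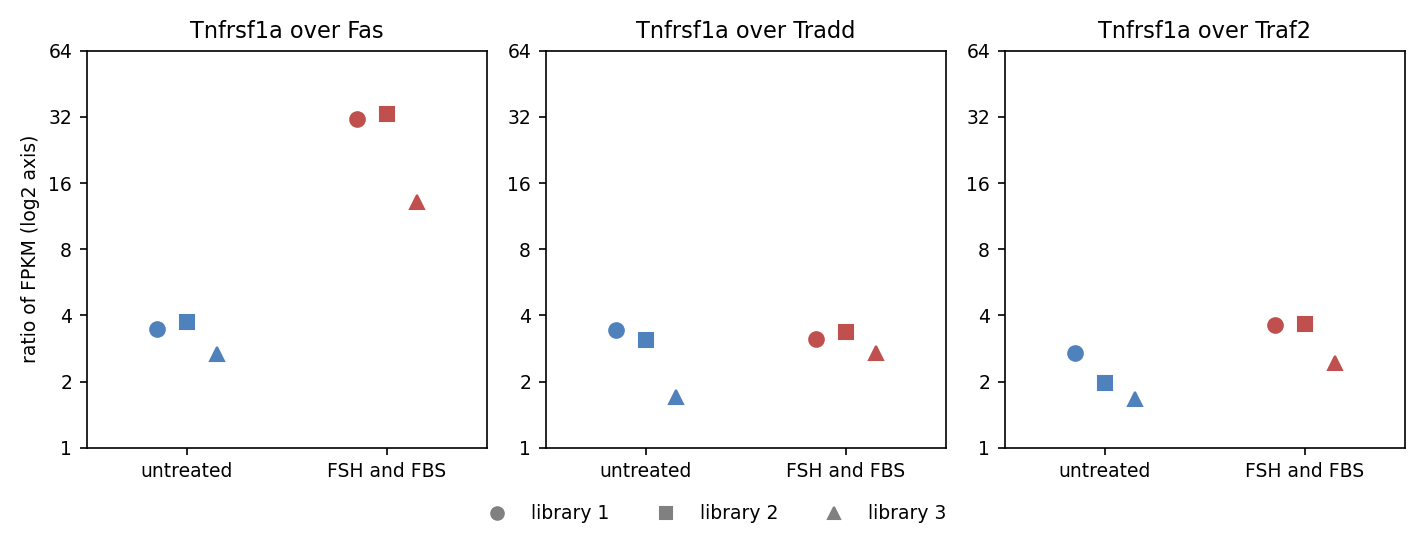
Ratio of FPKM within each library (log2 axis) of Tnfrsf1a to Fas, Tradd and Traf2. The ratio to Fas is 13.1 to 32.9 with FSH and FBS and 2.67 to 3.75 in untreated libraries, while the other 2 ratios overlap between the groups. The separation of the ratio to Fas follows from the non-overlapping values of the 2 genes.

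Closest genes were sought among tested genes with a mean of at least 5 FPKM, leaving out predicted and unnamed genes and the members. Fas itself has a lower mean. The genes whose profile over the 6 libraries lay closest to each member had the smallest root-mean-square difference of centred log2(FPKM + 1). They are given as a description, since libraries 1 and 2 of a group are near repeats. For Fas they were Cd83, an immune cell surface protein (difference 0.071), Marc2, a mitochondrial reductase (0.078), and Cxcl2, a chemokine (0.18). For Tnfrsf1a they were the glycolytic enzyme gene Pgk1 (0.049), the intramembrane protease gene Sppl3 (0.058) and the lipase inhibitor gene Angptl4 (0.059). Closest to Tradd were Ndufb3, a subunit of respiratory complex I (0.048), Rrp7a (0.055) and Sil1 (0.065). Closest to Traf2 were Sf3a2, a splicing factor (0.071), Prrt2 (0.074) and Asb8 (0.075). For Tnfrsf10b the closest were Zfp317, Ctnnb1, which encodes beta-catenin, and Mipol1, at 0.19 to 0.20.

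Of 85 other gene names in a list of death receptor signalling, 73 were listed in at least 1 library and 59 were tested. None of the 59 was called higher or lower by limma, against 2.37% of all genes, and 11 had an unadjusted p under 0.05, against 16.5% of all genes. With the replicate block 11 of the 59 passed, namely Rhbdf2, Mlkl, Pea15a, Cradd, Cyld, Spata2, Tnfrsf12a and Bcl3, which were higher, and Map3k5, Eda2r and Tnfaip3, which were lower, in a fit that called 16% of all genes. The median log2 fold change of all 59 tested pathway genes was 0.25, close to the 0.24 of all genes. Groups did not overlap in 35.6% of the 59, against 38.9% of all genes. The shares without the block are near or below those of all genes.

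Among 8 ligand genes, 4 were listed. Fasl, the ligand of Fas, and Lta, Ltb and Tnfsf15 were unlisted in all 6 libraries. Tnfsf10, which encodes TRAIL, the ligand of Tnfrsf10b, was at 4.9, 5.07 and 1.94 FPKM in the untreated libraries and unlisted in all 3 with FSH and FBS. The share of all genes listed in the untreated libraries only is not given here. Tnf was at 0.68 and 0.41 FPKM in untreated libraries 1 and 2 and otherwise unlisted. Tnfsf12, which encodes TWEAK, was at 4.27 to 5.61 FPKM in the 6 libraries, with 49.9% to 52.9% of its exon signal outside the gene.

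Of 12 other receptors of the family, 9 were listed and 5 tested, and 4 of the 5 had all FSH and FBS libraries above all untreated ones, as had 29.4% of all genes. Tnfrsf12a, the TWEAK receptor, was at 191.7, 174.1 and 260.7 FPKM against 83.8, 92.1 and 90.8 (log2 fold change 1.28, limma adjusted p = 0.168). Ltbr, the lymphotoxin beta receptor, averaged 43.3 ± 13.2 against 23.9 ± 5.70 FPKM (SD, n = 2). Tnfrsf1b, TNF receptor 2, averaged 4.82 ± 1.25 against 2.61 ± 0.10 FPKM (SD, n = 2). Tnfrsf21, death receptor 6, was at 1.55, 1.4 and 1.34 FPKM against 0.62, 0.75 and 0.59. Eda2r, the ectodysplasin A2 receptor, was at 3.82, 3.28 and 1.05 FPKM against 17.5, 14.4 and 3.57, and its groups overlapped through untreated library 3. Its log2 fold change was -1.53, and -2.47 without that library. The decoy TRAIL receptor gene Tnfrsf22 was at 2.95, 2.2 and 0.76 FPKM with FSH and FBS, and 1 untreated library listed it at 0.34 FPKM. The other decoy receptor gene, Tnfrsf23, was at 1.69 and 1.46 FPKM in 2 treated libraries and 0.52 in 1 untreated library. Tnfrsf25 and Cd40 were at most 1.2 FPKM in any library and each was missing from at least 2. Edar and Tnfrsf11b were unlisted.

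Of 9 gene names for receptor shedding and trafficking, 7 were tested. Arts1, which was unlisted, is another name of Erap1. Rhbdf2, a partner of the protease ADAM17 that releases TNF and its receptors, was at 18.2, 18.9 and 26.3 FPKM against 6.7, 7.07 and 3.91. It was the pathway gene with the smallest adjusted p (log2 fold change 1.89, limma adjusted p = 0.056). Over all alternative settings its adjusted p ranged from 0.0010 to 0.301. Adam17 itself averaged 22.7 ± 9.52 against 18.6 ± 11.9 FPKM (SD, n = 2) and its groups overlapped. Timp3, an inhibitor of ADAM17, was at 2.13, 2.04 and 1.19 FPKM against 0.79, 0.46 and 0.58 (limma adjusted p = 0.42). Erap1 had a log2 fold change of -0.58 (limma adjusted p = 0.55).

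All 12 genes of the death-inducing and necroptotic complexes were listed and 11 tested. Casp8, the caspase that FADD recruits, was at 9.53, 9.63 and 6.48 FPKM against 8.51, 8.26 and 7.03. Cflar, its inhibitor FLIP, was at 6.92, 9.9 and 3.99 FPKM against 5.93, 4.84 and 3.98. Both overlapped between the groups. Mlkl, the effector of necroptosis, was at 5.35, 5.85 and 8.22 FPKM against 1.68, 1.35 and 1.51 (log2 fold change 1.63, limma adjusted p = 0.075). Ripk3, the kinase that activates MLKL, was at 0.84, 1.15 and 2.46 FPKM with FSH and FBS and 0.71 FPKM in the only untreated library that listed it. Pea15a, a death effector domain protein, averaged 17.7 ± 1.55 against 7.86 ± 0.78 FPKM (SD, n = 2; limma adjusted p = 0.18). Cradd, an adaptor with a death domain, averaged 8.09 ± 3.93 against 3.72 ± 0.74 FPKM (SD, n = 2; limma adjusted p = 0.35), and its libraries overlapped.

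In the TNF receptor ubiquitin complex 13 of 18 genes were tested. The deubiquitinase gene Cyld was at 5.29, 5.69 and 6.39 FPKM against 2.91, 3.18 and 1.91 (log2 fold change 1.01, limma adjusted p = 0.25), or 0.24 by first exons only. Its partner Spata2 differed by 0.89 on the log2 scale and the ubiquitin-conjugating enzyme gene Ube2n by 0.93, each with a limma adjusted p of 0.28. Tnfaip3, the deubiquitinase A20, chosen after its values were seen, was at 1.47, 1.15 and 3.16 FPKM against 5.41, 5.57 and 4.82 (log2 fold change -0.99, limma adjusted p = 0.296), with all untreated libraries above. Among 14 tested downstream kinases Map3k5, which encodes the JNK pathway kinase ASK1, was at 6.74, 7.27 and 0.83 FPKM against 26.8, 24.3 and 11.6 (log2 fold change -2.26, limma adjusted p = 0.161; 0.00018 to 0.292 over all alternative settings). Without FSH and FBS library 3 it was -1.19. Mapk8, which encodes JNK1, had a log2 fold change of -0.70 and Tab1 one of 0.74, though 22.6% to 67.3% of the Tab1 signal lay outside the gene in 5 libraries, and its value was 0.041 without FSH and FBS library 3. Of 8 tested NF-kappaB genes, Bcl3 was at 7.27, 6.79 and 16.5 FPKM against 2.92, 2.88 and 2.97 (limma adjusted p = 0.13). Nfkbia, the inhibitor IkappaB-alpha, had a log2 fold change of -0.71 and Nfkb2 one of 0.45.

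**Figure D5:**
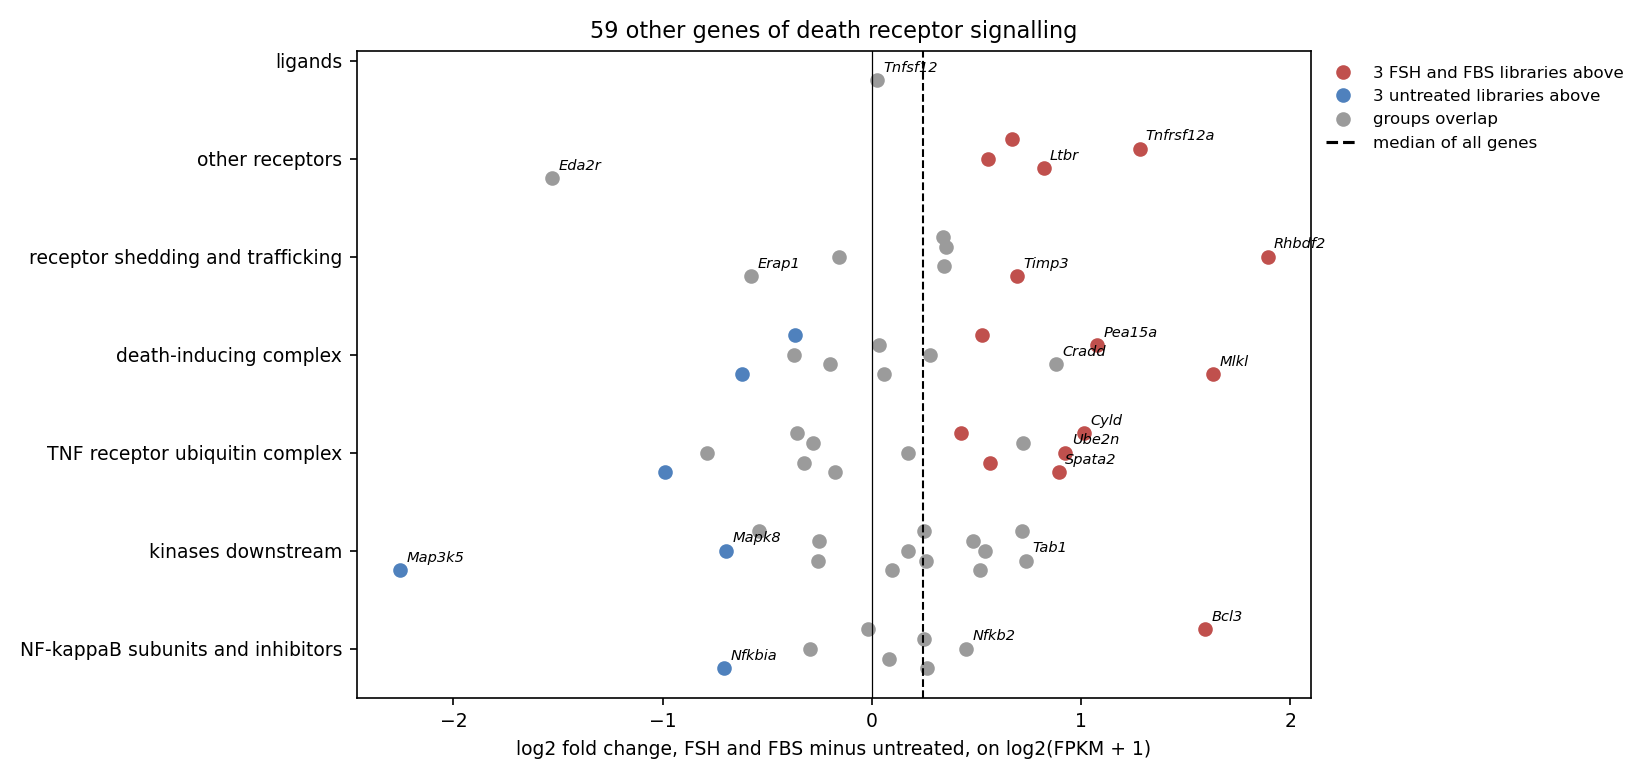
Log2 fold change (horizontal axis) of the 59 tested pathway genes by role, coloured by whether the 3 libraries of one group all lie above those of the other. Rhbdf2 lies at 1.89, Mlkl at 1.63, Eda2r at -1.53 and Map3k5 at -2.26, and the genes scatter around the dashed median of all genes (0.24). No gene passed in the lead fit, which used averaged samples and no replicate block. Without the block, 9 passed with all 6 libraries as separate replicates, 1 at a mean of at least 5 FPKM and 2 by last exons only.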

How the data were processed

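RNA libraries of mouse cumulus cells were compared, 3 per group; the small-RNA libraries were not analysed here. The deposited tables give FPKM per transcript event, per the file headers. The submitters' processing notes name HISAT2 2.0.1, a read aligner. The genome build and the assembler are not given in the sources used here. Exact duplicate rows were dropped, and rows were joined to genes by Ensembl ID (13281 of 13318 had a symbol). First exons and last exons were summed on the strand with most signal. An unlisted gene was treated as missing, not as 0. Values were tested as log2(FPKM + 1) with the trend option of limma 3.58.1 (R 4.3.3), two-sided, for 9022 genes that every library listed and whose mean reached 1 FPKM, with Benjamini-Hochberg adjustment. Fold changes on this scale understate those of low genes. The scripts were tested on simulated data. With unknown depth, no counting interval is given. The members, lists and tests were chosen with earlier results of these data known. Pathway genes named were the 3 per role with the smallest adjusted p and the listed ligands and receptors (1 ligand is not reported here), and others were chosen after their values were seen. Same-numbered libraries of the 2 groups deviated together (r = 0.319, 0.31 and 0.508 over genes). The value after averaging libraries 1 and 2 is that of library 3, 0.508, by construction. The labels do not say what a number marks, so values with the number as a block are given where they change a call. Alternatives covered replicates, pseudocount, filters, exons, unlisted genes and scaling. RefSeq gave a start window for 5 of the 7 genes.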

Additional observations from a re-analysis of the deposited data

How the results depend on the processing

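Each of the 5 listed members was refitted under 19 alternative settings, fewer where a filter dropped it. Fas stayed negative throughout (-1.82 to -0.63), and Tnfrsf1a (0.55 to 0.96) and Tradd (0.22 to 0.86) stayed positive. Without 1 library Traf2 ranged from -0.17 (reversed, without FSH and FBS library 3) to 0.42, and Tnfrsf10b reversed to -0.25 by its shared first exon. No member was called in the lead fit. With all 6 libraries as separate replicates 2 were (Fas and Tnfrsf1a), as with all 6 and the replicate block. With the block on averaged samples 1 was (Fas, limma adjusted p = 0.016), and leaving out 1 library gave 0 to 1. Pathway calls were 9, 14 and 11 in these 3 fits, 1 at a mean of at least 5 FPKM, 2 by last exons only and 0 in each fit without 1 library. Counts over all genes were 214 in the lead fit, 1323, 2100 and 1447 in the 3 fits, 63 by first exons only, 90 by median of ratios (54.4% higher, against 71.0%), 104 at equal sums (56.7% higher), 184 by quantile normalization (56.5% higher), and 101 (without untreated library 3) to 384 (without FSH and FBS library 3). Rescaling took the median of all genes from 0.24 to between -0.013 and 0.0042. Background shares were 14.7%, 23.3% and 16% of genes in the 3 fits. The p-values with 6 replicates are too small if libraries 1 and 2 are repeats. As for pairing by number, FSH and FBS libraries 1 and 2 correlated alike with untreated libraries 1 and 2 (0.31 to 0.33), so numbers 1 and 2 are not told apart; the block on averaged samples changed no other call of a member or pathway gene. Tnfsf12 reversed with 6 libraries (-0.0085, with or without the block), median of ratios (-0.20), equal sums (-0.21), quantile normalization (-0.15) and without 1 library (-0.063 to 0.11). The cause was not tested for any of these.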
